A study of Homo sapiens with 10 samples.

Results

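Heat shock proteins and their helpers were compared between bortezomib-resistant (BR) and PT cells of HBL2 and JEKO, 2 established lines of mantle cell lymphoma, a tumour of mature B cells. The list holds 46 genes in 11 classes: the heat shock factors, HSP70, HSP110, HSP90, small heat shock proteins, J proteins, BAG proteins, HSP90 co-chaperones with STUB1, the TRiC chaperonin and their relatives. Of these, 40 had a probe set annotated to that gene alone, and the brightest such probe set stood for the gene. The other 6 were left without a value: HSPA1A, HSPA1B, HSPA8 and TCP1 had only probe sets annotated to several genes, and HSF2 and AHSA1 were not analysed here. HSPA2 did not reach the level filter, which left 39 members among 14529 genes tested. HSPB11 was found under its current symbol IFT25. The list is named for the cytosol, but 5 of its members (HSPA9, HSPD1, HSPE1, TRAP1 and DNAJA3) encode chaperones of mitochondria and HSPA13 encodes a microsome-associated protein.

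The groups were HBL2 PT (n = 3), HBL2 BR (n = 3), JEKO PT (n = 2) and JEKO BR (n = 2), each sample on its own array, and all cells were harvested in logarithmic growth. Resistance of the BR cells was induced with bortezomib, an inhibitor of the proteasome; PT is taken to mean the matched parental cells, from what is known of the study, because the labels do not spell the letters out. The sources used here do not say whether BR cells were in drug at harvest, whether they are clones or whether replicates were separate cultures. P-values therefore cover the sample-to-sample spread alone, and that spread may be technical. Values are deposited scores with no stated log base, and every array holds the same set of scores (median 0.73, highest 4.99). Differences are therefore given in deposited units, never as folds. Levels of different probe sets are used together only to choose the brightest, for medians and marker sums, and to place some within the array. The levels of different members are otherwise not compared.

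Cells that lose proteasome capacity accumulate misfolded proteins, and heat shock factors, chiefly HSF1, then switch on the genes of inducible chaperones through heat shock elements in their promoters. HSP70 proteins bind unfolded stretches, J proteins hand clients to them and stimulate their ATPase, and HSP110 and BAG proteins release the nucleotide. HSP90 matures kinases and steroid receptors with its co-chaperones, TRiC folds actin and tubulin, and small heat shock proteins hold unfolded clients without ATP.

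Promoter sequence was set beside the list because many of these genes are textbook targets of HSF1. A heat shock element was searched as 3 alternating units, GAANNTTCNNGAA or, on the other strand, TTCNNGAANNTTC, in RefSeq windows of GRCh38.p14 that run from 250 bases before to 50 after each start site. Of the members, 41 had at least 1 window and 8 (19.5%) held a match: HSPA6, HSPA8, HSPD1, HSP90AA1, HSP90AB1, DNAJA1, DNAJB6 and CHORDC1. Of all 27305 genes with a window, 0.608% held one. The 150 bases before the start site are shown, 5′ to 3′, for 4 of these genes and for HSPB1, whose window held no match, since these 5 recur below; capitals mark the matches. HSPA6 lies at chr1:161524390-161524539 (plus strand), HSPB1 at chr7:76302523-76302672 (plus), DNAJB6 at chr7:157336854-157337003 (plus), CHORDC1 at chr11:90223050-90223199 (minus) and HSP90AA1 at chr14:102087045-102087194 (minus), where 1 of its 2 start sites is shown.
HSPA6: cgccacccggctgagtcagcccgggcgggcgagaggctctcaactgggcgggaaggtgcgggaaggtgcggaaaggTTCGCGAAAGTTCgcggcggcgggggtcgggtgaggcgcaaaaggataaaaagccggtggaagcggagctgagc
HSPB1: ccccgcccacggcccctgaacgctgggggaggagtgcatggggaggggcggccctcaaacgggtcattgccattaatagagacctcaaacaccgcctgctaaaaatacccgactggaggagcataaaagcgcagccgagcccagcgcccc
DNAJB6: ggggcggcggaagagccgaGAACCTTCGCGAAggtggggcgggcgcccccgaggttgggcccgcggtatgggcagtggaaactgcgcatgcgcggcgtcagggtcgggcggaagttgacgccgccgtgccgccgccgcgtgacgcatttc
CHORDC1: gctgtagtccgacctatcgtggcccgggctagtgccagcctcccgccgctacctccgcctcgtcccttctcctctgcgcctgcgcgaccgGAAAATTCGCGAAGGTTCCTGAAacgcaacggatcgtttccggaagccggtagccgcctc
HSP90AA1: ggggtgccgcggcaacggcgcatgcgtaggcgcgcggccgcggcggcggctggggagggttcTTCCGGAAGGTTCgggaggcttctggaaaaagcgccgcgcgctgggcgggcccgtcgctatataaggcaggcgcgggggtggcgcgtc
In CHORDC1 the capitals join 3 overlapping matches. A match is a description of letters, not evidence of binding. Other forms of the element and sites outside the windows were not searched, so a member without a match may still have an element.

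The labelled cell type was checked first. All 6 B cell and mantle cell lymphoma markers with a probe set (MS4A1, CD79A, CD79B, PAX5, CCND1 and SOX11) lay at or above the 88.2nd percentile of all probe sets on average. Their summed score was 13.8 to 14.6 in HBL2 PT, 13.0 to 13.7 in HBL2 BR, 15.8 on both JEKO PT arrays and 15.1 to 15.5 in JEKO BR, lower in BR than in PT without overlap in each line. The markers of T and NK cells lay between the 7.596th (NKG7) and the 48.7th percentile (CD3E), those of myeloid cells between the 6.09th (CD14) and the 45.7th (CSF1R), and those of stroma and epithelium between the 38.7th (COL1A2) and the 70.7th (COL1A1). Summed over the 5 T and NK cell markers, 1 of which passed the filter, scores were 2.58 to 2.80 in HBL2 PT, 2.32 to 2.47 in HBL2 BR, 2.61 to 2.64 in JEKO PT and 2.40 to 2.90 in JEKO BR. Summed over the 4 myeloid markers, 2 of which passed, they were 1.89 to 2.66 in HBL2 PT, 1.23 to 1.99 in HBL2 BR, 1.76 to 1.86 in JEKO PT and 1.69 to 2.18 in JEKO BR; LYZ lay between 0.23 and 1.15. The 4 stromal and epithelial markers, all of which passed, summed to 2.69 to 3.14 in HBL2 PT, 2.70 to 3.08 in HBL2 BR, 2.85 to 3.68 in JEKO PT and 3.06 to 3.68 in JEKO BR. No marker was listed at 0. The beta-actin 5′ minus 3′ value, a sign of RNA quality, ranged from -1.25 to -0.58 in HBL2 PT, -1.04 to -0.69 in HBL2 BR, -0.82 to -0.70 in JEKO PT and -1.01 to -0.76 in JEKO BR. The part of the marker differences in the results below was not tested. With the beta-actin value as a covariate the members called were 10 in place of 7 in HBL2, 5 in place of 3 in JEKO and 10 in place of 6 for the difference of the changes described below.

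In HBL2 BR cells HSPA6, a strictly stress-inducible HSP70, and HSPB1, the small heat shock protein HSP27, fell far below PT, and FKBP5 and CCT5 fell by less. DNAJC6, HSPA4L and TRAP1 rose. HSF1 and the widely used readouts of the heat shock response DNAJB1, HSPH1, BAG3 and HSP90AA1 were not called, and HSPA1A and HSPA1B had no value. Thus 7 of 39 members (17.9%) were called in HBL2 (limma, Benjamini-Hochberg adjusted p under 0.05), beside 11.8% of all genes tested. There were 3 higher members, beside 4.91% of all genes, and 4 lower ones, beside 6.86%. The median change was 0.073 over the members and -0.00099 over all genes. A change above 0 was seen for 25 members, beside 7219 of 14529 genes. Without HBL2 BR replicate 1 the count of called members was 4.

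HSPA6 scored 1.52, 1.47 and 1.62 in HBL2 PT and 0.72, 0.54 and 0.44 in HBL2 BR. All BR arrays lay well below all PT arrays, and the change was -0.97 ± 0.080 (SE; limma adjusted p = 5.59e-07). Its second probe set changed by -0.44 and its BR arrays too lay below PT. In JEKO, HSPA6 scored 0.82 and 0.96 in PT and 0.83 on both BR arrays, a change of -0.063 ± 0.098 (adjusted p = 0.81). HBL2 PT therefore stood above the other 3 groups, whose arrays ran from 0.44 to 0.96. The HBL2 BR arrays lay below the level filter used for testing, the array median of 0.73. A probe set of HSPA6 can also bind its close relative HSPA7, which limits what the value shows.

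HSPB1 scored 2.38, 2.25 and 2.11 in HBL2 PT and 1.50, 1.50 and 1.74 in HBL2 BR. The groups did not overlap, and the change was -0.66 ± 0.086 (limma adjusted p = 6.42e-05). In JEKO it scored 2.05 and 1.83 in PT and 1.95 and 1.78 in BR, overlapping groups that differed by -0.078 ± 0.11 (adjusted p = 0.78). HSPB1 has a single probe set, so no second readout on the array bears on it. The other small heat shock genes were not called. CRYAB, the alpha-B crystallin gene, scored between 0.49 and 0.95 over all arrays, near the middle of the array, and changed by -0.092 ± 0.13 in HBL2 (adjusted p = 0.74). HSPB11, which encodes an intraflagellar transport subunit despite its name, changed by -0.027 ± 0.073 (adjusted p = 0.88).

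FKBP5, an immunophilin that binds HSP90 and is a glucocorticoid receptor target, scored 2.70, 2.51 and 2.59 in HBL2 PT and 2.27, 2.31 and 2.39 in HBL2 BR. The change of -0.28 ± 0.060 (limma adjusted p = 0.0055) was matched in size by its other 2 probe sets, at -0.23 and -0.25. CCT5, a TRiC subunit, scored 2.45, 2.58 and 2.55 in PT against 2.34, 2.33 and 2.23 in BR, a change of -0.22 ± 0.064 (adjusted p = 0.032), and its second probe set changed by -0.30. In JEKO, FKBP5 scored 2.57 and 2.56 in PT and 2.60 and 2.59 in BR, and CCT5 scored 2.70 and 2.60 in PT and 2.65 and 2.47 in BR. The HBL2 call of CCT5 was lost without any 1 HBL2 array other than PT replicate 1 (adjusted p = 0.0547 to 0.120). The other TRiC genes CCT2, CCT3 and CCT8 changed by 0.10, 0.054 and 0.087 in HBL2 and were not called (adjusted p = 0.28 to 0.63).

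DNAJC6 encodes auxilin, a J protein that recruits HSC70 to strip clathrin from vesicles. It scored 0.65, 0.77 and 0.45 in HBL2 PT and 1.51, 1.58 and 1.61 in HBL2 BR, a rise of 0.94 ± 0.10 (limma adjusted p = 1.13e-05). In JEKO it scored 0.66 and 0.24 in PT and 0.92 and 1.10 in BR, a rise of 0.56 ± 0.13 (adjusted p = 0.020). Of the 5 PT arrays 4 lay below that filter level, so DNAJC6 was tested mainly through the BR arrays, where it is high, and the size of its rise is set against a level near the filter. DNAJC6 was the single member called in both lines, as were 0.379% of all genes upward, and the difference between its 2 changes did not pass (0.38 ± 0.16, adjusted p = 0.18). Its second probe set lay below the filter, at the 27.8th percentile, and changed by -0.22 in HBL2 and 0.16 in JEKO. With the median of both probe sets the rise was 0.36 in each line, and the JEKO call was lost (adjusted p = 0.11). The JEKO rise was 0.36 without JEKO PT replicate 2 (adjusted p = 0.20), and leaving out JEKO BR replicate 2 ended the call as well (adjusted p = 0.23).

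HSPA4L, an HSP110 nucleotide exchange factor, scored 0.97, 1.09 and 1.21 in HBL2 PT and 1.57, 1.41 and 1.40 in HBL2 BR. The groups did not overlap, and the rise was 0.37 ± 0.086 (limma adjusted p = 0.0086), or 0.34 on its other probe set. It no longer passed once HBL2 BR replicate 1 was left out (adjusted p = 0.0655). In JEKO it scored 0.33 and 0.26 in PT and 0.68 and 0.44 in BR. TRAP1, the HSP90 of mitochondria, scored 2.46, 2.24 and 2.08 in PT and 2.50, 2.50 and 2.64 in BR, a rise of 0.28 ± 0.079 (adjusted p = 0.026). PT replicate 1 came close to the lowest BR array. In JEKO, TRAP1 scored 2.26 and 2.29 in PT and 2.35 and 2.42 in BR. The HBL2 call of TRAP1 did not hold without HBL2 PT replicate 2 or 3 or any 1 HBL2 BR array (adjusted p = 0.051 to 0.11), nor with the median of its 2 probe sets (0.17, adjusted p = 0.28).

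**Figure D1:**
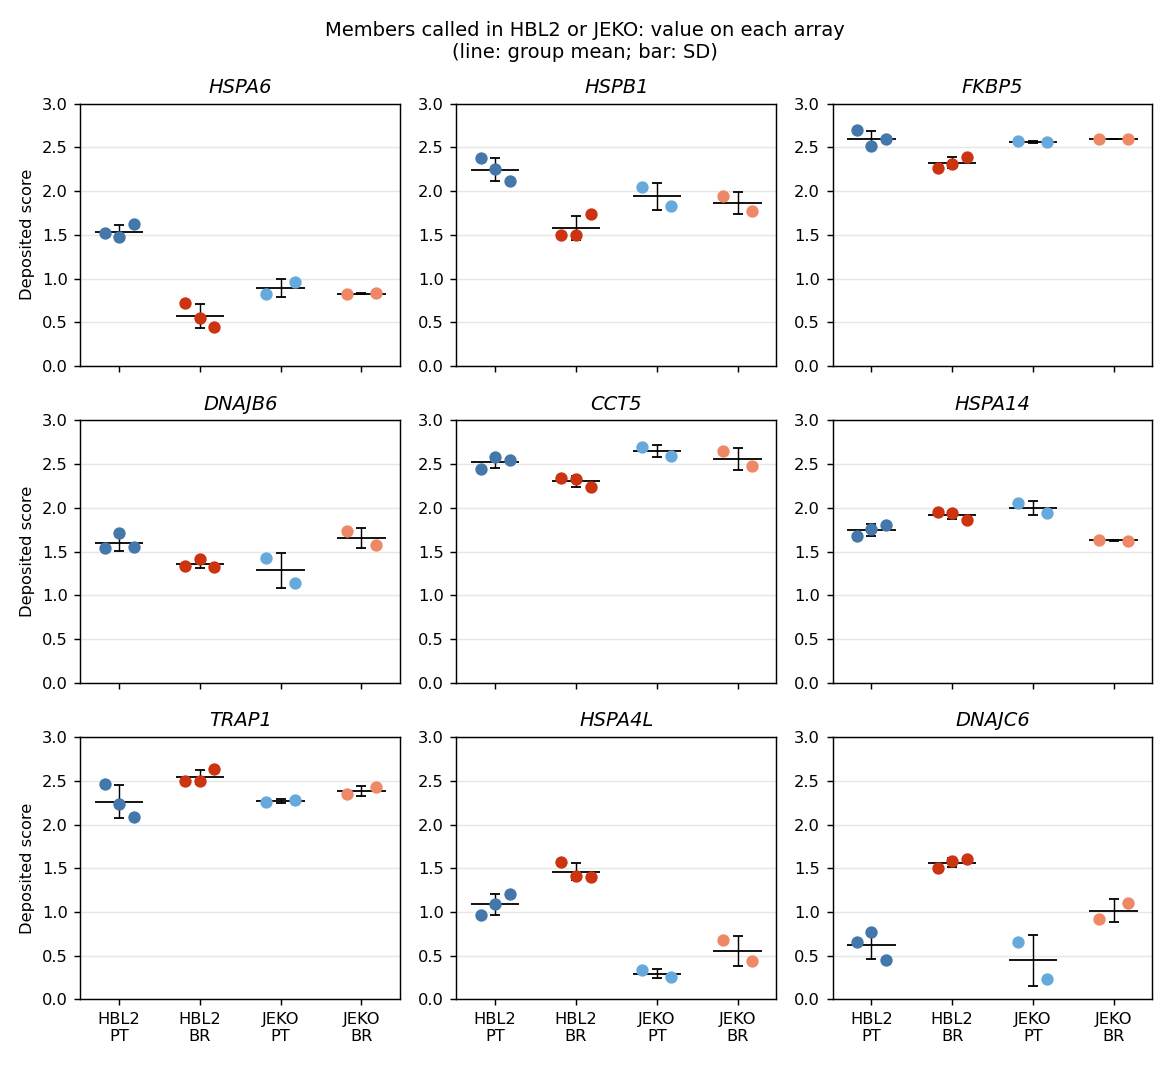
Deposited score (vertical axis) of the 9 members called in HBL2 or JEKO, by group (horizontal axis); points are arrays, lines group means and bars SDs. HSPA6 and HSPB1 are lower in HBL2 BR than in HBL2 PT, DNAJC6 is higher in BR of both lines, and HSPA14 is lower in JEKO BR (1.63 on both arrays) than in JEKO PT (1.95 and 2.06).

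Among the heat shock factors, HSF1 scored 1.59, 1.50 and 1.47 in HBL2 PT and 1.48, 1.46 and 1.47 in HBL2 BR. These overlapped, with a change of -0.045 ± 0.057 (limma adjusted p = 0.71; 95% interval, not adjusted, -0.17 to 0.08). HSP90AA1, the stress-inducible cytosolic HSP90, scored 3.75, 3.91 and 3.45 in PT and 3.89, 3.97 and 3.88 in BR. Its change was 0.21 ± 0.10 (adjusted p = 0.23), and its other 3 probe sets changed by 0.14, 0.29 and 0.30. On the probe sets with 0.29 and 0.30 the BR arrays lay above all PT arrays, and on the other ones the groups overlapped. Another probe set stands for the gene when those with _x_at or _s_at names are left out, and that one passed (adjusted p = 0.036). HSP90AB1, the constitutive form, scored 3.11, 3.33 and 3.20 in PT and 3.34, 3.38 and 3.30 in BR, a change of 0.13 ± 0.063 (adjusted p = 0.23).

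DNAJB1, the J protein HSP40, scored 1.62, 1.67 and 1.70 in HBL2 PT and 1.58, 1.64 and 1.64 in BR (-0.042 ± 0.064, limma adjusted p = 0.76). BAG3, which links HSP70 to autophagy and is induced when the proteasome is blocked, scored 1.62, 1.55 and 1.54 in PT and 1.40, 1.34 and 1.57 in BR (-0.13 ± 0.069, adjusted p = 0.25). HSPH1, the inducible HSP110, scored 2.34, 2.59 and 2.46 in PT and 2.59, 2.65 and 2.45 in BR (0.096 ± 0.085, adjusted p = 0.55). PT and BR overlapped for each of these 3 genes. In HBL2 CHORDC1 scored 2.001, 2.29 and 2.28 in PT and 2.26, 2.42 and 2.24 in BR. The other 20 members not called in HBL2, those described for JEKO included, changed by -0.24 to 0.19. On HBL2 PT replicate 3, STIP1 (1.75, against 2.11 and 2.16, with 2.13, 2.26 and 2.16 in BR) was below the other PT arrays. So were FKBP4 (1.75, against 2.30 and 2.22), STUB1 (2.08, against 2.78 and 2.60) and HSP90AA1, which widened the spread of these genes in PT. CDC37 was lowest there by less (1.56, against 1.84 and 1.61). HSP90AB1, CHORDC1, FKBP5 and PTGES3 lay between the other PT arrays. In all, 12 members had HBL2 groups that did not overlap, beside 27.3% of all genes.

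In JEKO BR cells HSPA14 fell, and DNAJB6 rose beside DNAJC6. These 3 were the called members of 39 (7.69%), beside 4.28% of all genes. The 2 higher members stand beside 2.56% of all genes and the 1 lower member beside 1.72%. Of the 39 changes 27 lay below 0, beside 6771 of 14529 genes. The median change was -0.063 over the members, against 0.012 over all genes. No member was called without JEKO BR replicate 2, where 120 genes in all were called, and 1 was called without JEKO PT replicate 2 or without JEKO BR replicate 1; without HBL2 PT replicate 1 or 3 the count was 5. On JEKO BR replicate 2 the beta-actin value was -1.01, below the other JEKO arrays, and with that value as a covariate 5 members were called.

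HSPA14, a ribosome-associated HSP70 relative, scored 2.06 and 1.95 in JEKO PT and 1.63 on both BR arrays, a fall of 0.37 on a standard error of 0.073 (limma adjusted p = 0.0086). Its other probe sets changed by -0.27 and -0.26, and BR arrays lay below PT arrays on all 3. The call did not survive leaving out JEKO PT replicate 1 (adjusted p = 0.11), BR replicate 1 (0.0590) or BR replicate 2 (0.0878), while the change stayed between -0.43 and -0.32. In HBL2 it scored 1.68, 1.75 and 1.81 in PT and 1.96, 1.94 and 1.87 in BR (0.17 ± 0.060, adjusted p = 0.072).

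DNAJB6, a J protein that suppresses aggregation of polyglutamine proteins, scored 1.42 and 1.15 in JEKO PT and 1.74 and 1.58 in JEKO BR. The rise of 0.37 ± 0.095 (limma adjusted p = 0.037) was 0.23 without JEKO PT replicate 2 (adjusted p = 0.32), and the call was lost without either JEKO BR array (adjusted p = 0.24 and 0.096) and without HBL2 BR replicate 1 (0.053), which changes only the shared spread. In HBL2 its scores were 1.54, 1.72 and 1.55 in PT and 1.34, 1.41 and 1.32 in BR, with the opposite sign (-0.24 ± 0.078, adjusted p = 0.053). The groups did not overlap in either line. DNAJB6 has a single probe set of its own.

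Several HSP90 and HSP70 helpers had lower scores in JEKO BR without passing the test. CHORDC1, an HSP90 co-chaperone, scored 2.53 and 2.35 in PT and 2.16 and 1.98 in BR (-0.36 ± 0.10, limma adjusted p = 0.059). With the median over its probe sets the change of CHORDC1 was -0.36 and passed (adjusted p = 0.033). That median takes in a probe set below the filter, at the 32.5th percentile. STIP1, the adaptor HOP that joins HSP70 to HSP90, scored 2.41 and 2.31 in PT and 2.13 and 1.91 in BR (-0.34 ± 0.11, adjusted p = 0.11), and its second probe set changed by -0.42. HSPH1 scored 2.60 and 2.34 in PT and 2.26 and 2.05 in BR (-0.31 ± 0.10, adjusted p = 0.11). For these 3 genes both BR arrays lay below both PT arrays, a pattern that 17 of 39 members showed in 1 direction or the other, beside 50.8% of all genes. BAG2, DNAJA2 and BAG5, none of them called, changed by -0.32, -0.29 and -0.22.

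The main HSP90 and HSP40 genes gave no call in JEKO. HSP90AA1 scored 3.98 and 3.58 in PT and 3.60 and 3.55 in BR (-0.20 ± 0.12, limma adjusted p = 0.44), and all 4 of its probe sets had changes between -0.23 and -0.19. HSP90AB1 scored 3.55 and 3.43 in PT and 3.53 and 3.45 in BR (-0.0012 ± 0.078, adjusted p = 0.997). DNAJB1 scored 1.59 and 1.44 in PT and 1.52 and 1.35 in BR (-0.080 ± 0.079, adjusted p = 0.67). BAG3 scored 1.32 and 1.47 in PT and 1.44 and 1.46 in BR (0.050 ± 0.084, adjusted p = 0.83). HSF1 scored 1.13 and 1.15 in PT and 1.21 and 1.23 in BR, groups apart by little (0.080 ± 0.070, adjusted p = 0.62). FKBP5, CCT5 and TRAP1, called in HBL2, changed here by 0.032, -0.086 and 0.11 (adjusted p = 0.88, 0.64 and 0.61), and HSPA4L by 0.26 ± 0.11 (adjusted p = 0.20).

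Apart from TRAP1 no mitochondrial chaperone was called in either line. HSPD1 and HSPE1, the HSP60 and HSP10 of the folding chamber, changed by -0.16 and -0.21 in HBL2 (limma adjusted p = 0.21 and 0.17) and by -0.23 and -0.21 in JEKO (0.19 and 0.37). HSPA9, the mortalin gene, changed by 0.064 in HBL2 and -0.040 in JEKO. DNAJA3, its J partner, changed by 0.075 and 0.021.

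**Figure D2:**
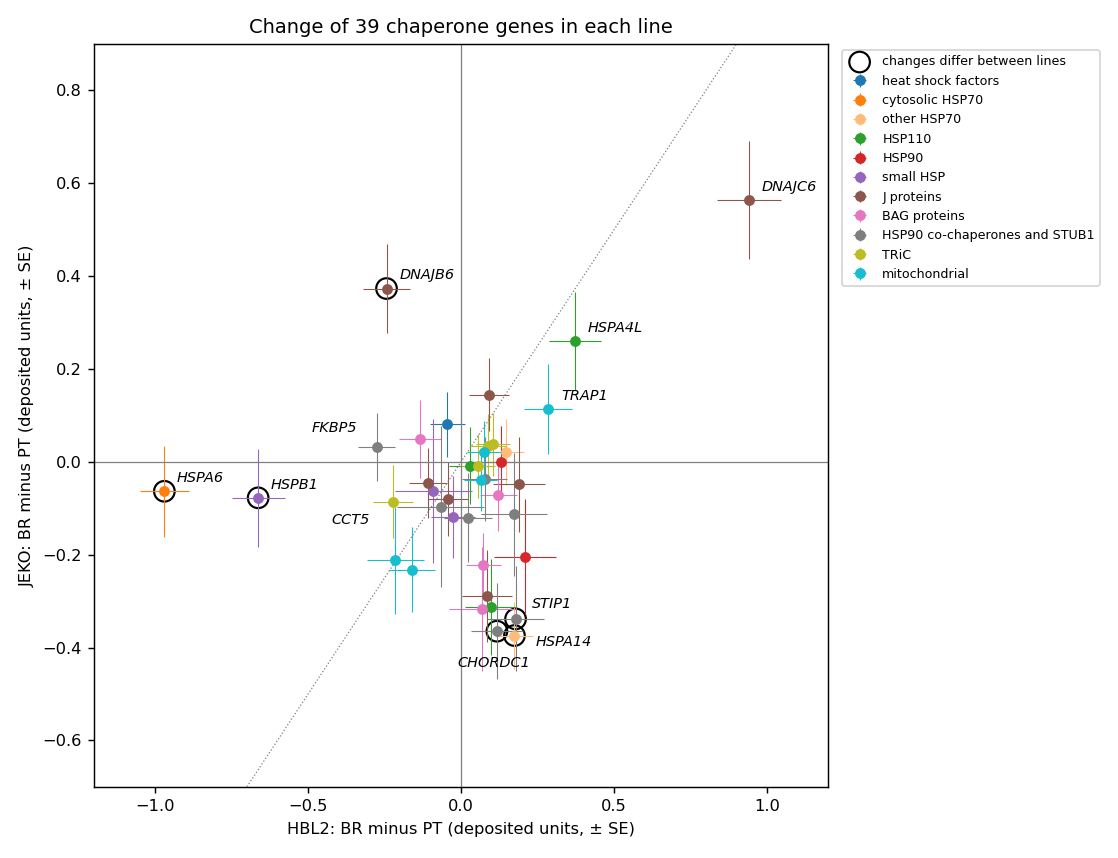
Change of each of 39 members, BR minus PT in deposited units with standard errors, in HBL2 (horizontal) and JEKO (vertical); colours are classes, the dotted line marks equal change, and rings mark members whose changes differed between the lines. HSPA6 and HSPB1 lie far left near 0 in JEKO, DNAJC6 lies upper right, and HSPA14, STIP1 and CHORDC1 lie below 0 in JEKO and above 0 in HBL2.

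The resistance change itself differed between the lines for 6 of 39 members (15.4%), beside 8.71% of all genes. The change was lower in HBL2 for 3 members, beside 5.76% of all genes, and higher for 3, beside 2.95%. HSPA6 (HBL2 change minus JEKO change -0.91 ± 0.13, limma adjusted p = 2.97e-04), DNAJB6 (-0.62 ± 0.12, adjusted p = 0.0047) and HSPB1 (-0.59 ± 0.14, adjusted p = 0.013) had the lower change in HBL2. HSPA14 (0.55 ± 0.094, adjusted p = 0.0016), STIP1 (0.52 ± 0.15, adjusted p = 0.036) and CHORDC1 (0.48 ± 0.13, adjusted p = 0.032) had the higher one. The first of these groups holds the inducible HSP70, a J protein and HSP27, and the second holds an HSP70 relative and 2 HSP90 co-chaperones. HSPB1 did not pass when JEKO PT replicate 2 was left out (adjusted p = 0.084) or JEKO BR replicate 1 (0.078). The call of CHORDC1 was lost without HBL2 BR replicate 2, JEKO PT replicate 1 or JEKO BR replicate 2 (0.086 to 0.19), and that of STIP1 without any 1 HBL2 BR array, any 1 JEKO PT array or JEKO BR replicate 2 (0.053 to 0.22). Of the 7 tested members with a match to the searched element, 3 were called here (HSPA6, DNAJB6 and CHORDC1), beside 8.71% of all genes. On resistance 1 was called in HBL2 (HSPA6), beside 11.8% of all genes, and 1 in JEKO (DNAJB6), beside 4.28%. A link of such a match with these calls was not tested. With the median over probe sets the difference of HSPA14 was 0.35 (adjusted p = 0.018). That of CHORDC1 was 0.38 there and did not pass (0.0541), while HSPH1, not among the 6, did (0.69, adjusted p = 0.046).

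**Figure D3:**
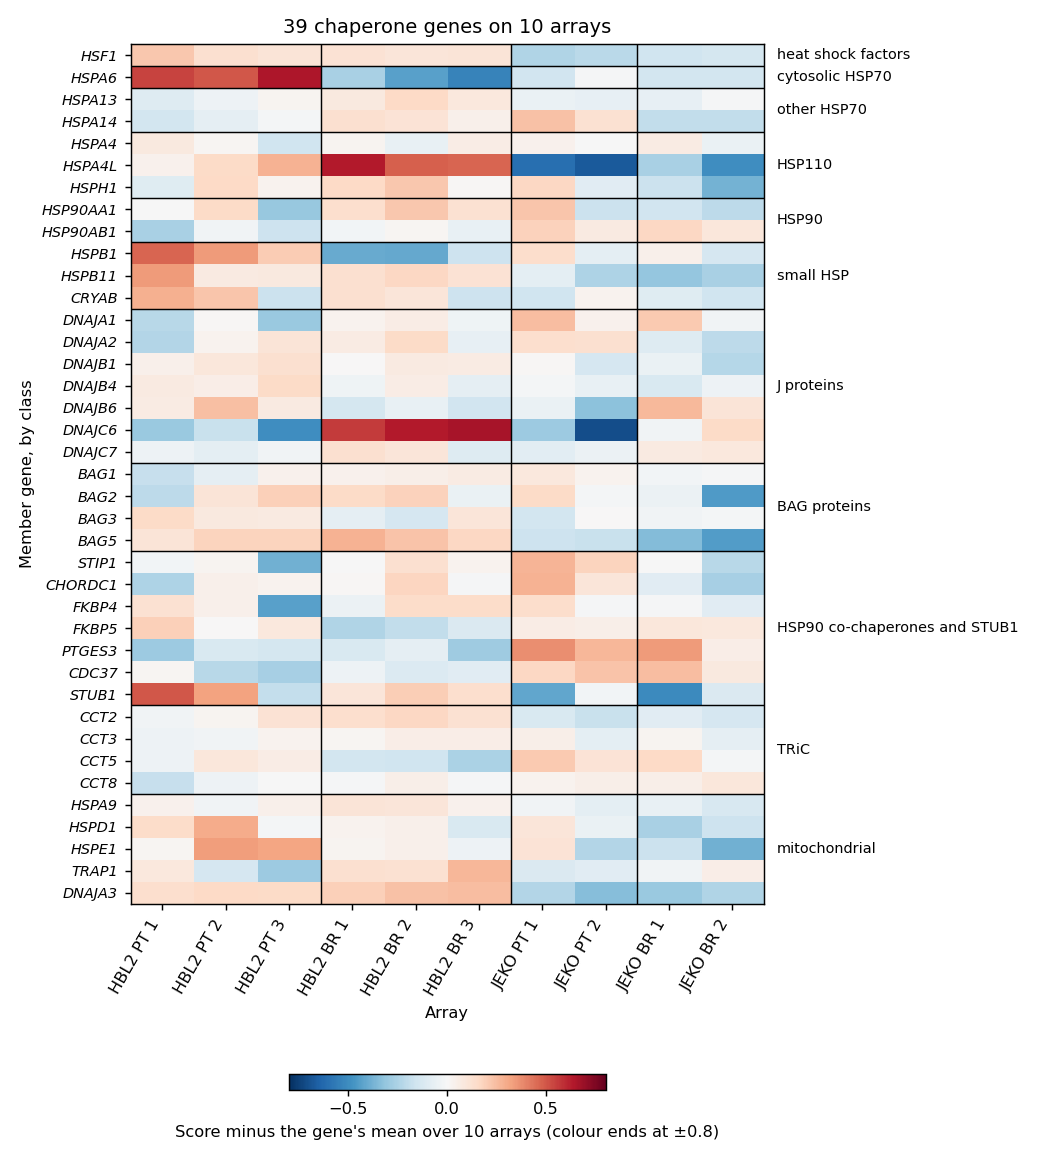
Score of each of 39 members minus its own mean over the 10 arrays (colour, deposited units), with arrays in columns by group and members in rows by class. HSPA6 is high on the 3 HBL2 PT arrays, HSPA4L is high in HBL2 and low in JEKO, and DNAJC6 is high on the 3 HBL2 BR arrays.

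Before resistance the lines already differed in much of the list. In PT cells 15 of 39 members (38.5%) were called between HBL2 and JEKO, beside 23.1% of all genes. In HBL2 9 were higher, beside 13.9% of all genes, and 6 lower, beside 9.25%. The PT arrays of the lines did not overlap for 22 members, beside 47.1% of all genes. The higher ones were spread over classes and included HSF1, and 3 of the 6 lower ones were HSP90 co-chaperones, with HSP90AB1 itself among the rest. The median difference was 0.019 over the members and 0.014 over all genes.

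HSPA4L scored 0.97 to 1.21 in HBL2 PT against 0.33 and 0.26 in JEKO PT (0.79 ± 0.096, limma adjusted p = 2.03e-05). All 4 JEKO arrays lay below the filter level of 0.73, so this gene was tested only through HBL2, where it is high. HSPA6 was 0.65 ± 0.090 higher in HBL2 (adjusted p = 7.33e-05), with the array values given above. DNAJA3 scored 2.18, 2.20 and 2.20 in HBL2 PT and 1.81 and 1.70 in JEKO PT, a difference of 0.44 ± 0.062 (adjusted p = 8.82e-05), and 0.46 on its second probe set. HSF1 was 0.38 ± 0.064 higher in HBL2 (adjusted p = 4.28e-04). Over the groups HSF1 was lowest in JEKO PT, then JEKO BR, neighbours that did not pass the test, and higher in both HBL2 groups, which overlapped. Its second probe set differed by 0.046 between the PT cells, and the median over both by 0.21 (adjusted p = 0.036).

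BAG5, a nucleotide exchange factor of HSP70, scored 2.42, 2.50 and 2.50 in HBL2 PT and 2.15 and 2.14 in JEKO PT (0.33 ± 0.064, limma adjusted p = 0.0014), and its other 2 probe sets differed by 0.33 and 0.40. HSPB11 scored 2.67, 2.41 and 2.41 against 2.25 and 2.08 (0.33 ± 0.081, adjusted p = 0.0075), a call lost without JEKO PT replicate 2 (adjusted p = 0.14). DNAJB6 was 0.32 ± 0.087 higher in HBL2 (adjusted p = 0.014). It was 0.18 higher without JEKO PT replicate 2 (adjusted p = 0.27), and the call was also lost without HBL2 PT replicate 2 (0.063).

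PTGES3, the HSP90 co-chaperone p23, led the lower group. It scored 3.01, 3.18 and 3.16 in HBL2 PT and 3.67 and 3.56 in JEKO PT, a difference of -0.50 ± 0.088 (limma adjusted p = 6.39e-04). CDC37, which brings kinases to HSP90, scored 1.84, 1.61 and 1.56 against 1.996 and 2.06 (-0.36 ± 0.082, adjusted p = 0.0049, or 0.062 without JEKO PT replicate 2). STIP1 was 0.35 units lower (-0.35 ± 0.10, adjusted p = 0.020), a call lost without either JEKO PT array (0.159 and 0.0645). HSP90AB1 (-0.28), DNAJA1 (-0.31) and HSPA14 (-0.26) were also lower in HBL2, and HSPB1 (0.31) and CCT2 (0.18) completed the higher ones. Each of these 5 calls was lost without JEKO PT replicate 1 or 2 (highest adjusted p without 1 array 0.13 to 0.32). With the median over probe sets CCT2 differed by 0.038 (adjusted p = 0.83), DNAJA1 by -0.18 (0.10), HSPA14 by -0.15 (0.078) and HSP90AB1 by -0.36 (0.075). STUB1, the ubiquitin ligase CHIP, differed by 0.43 ± 0.16, which did not pass (adjusted p = 0.063), and varied within groups. With the median over its probe sets STUB1 differed by 0.37, which did pass (adjusted p = 0.0078).

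**Figure D4:**
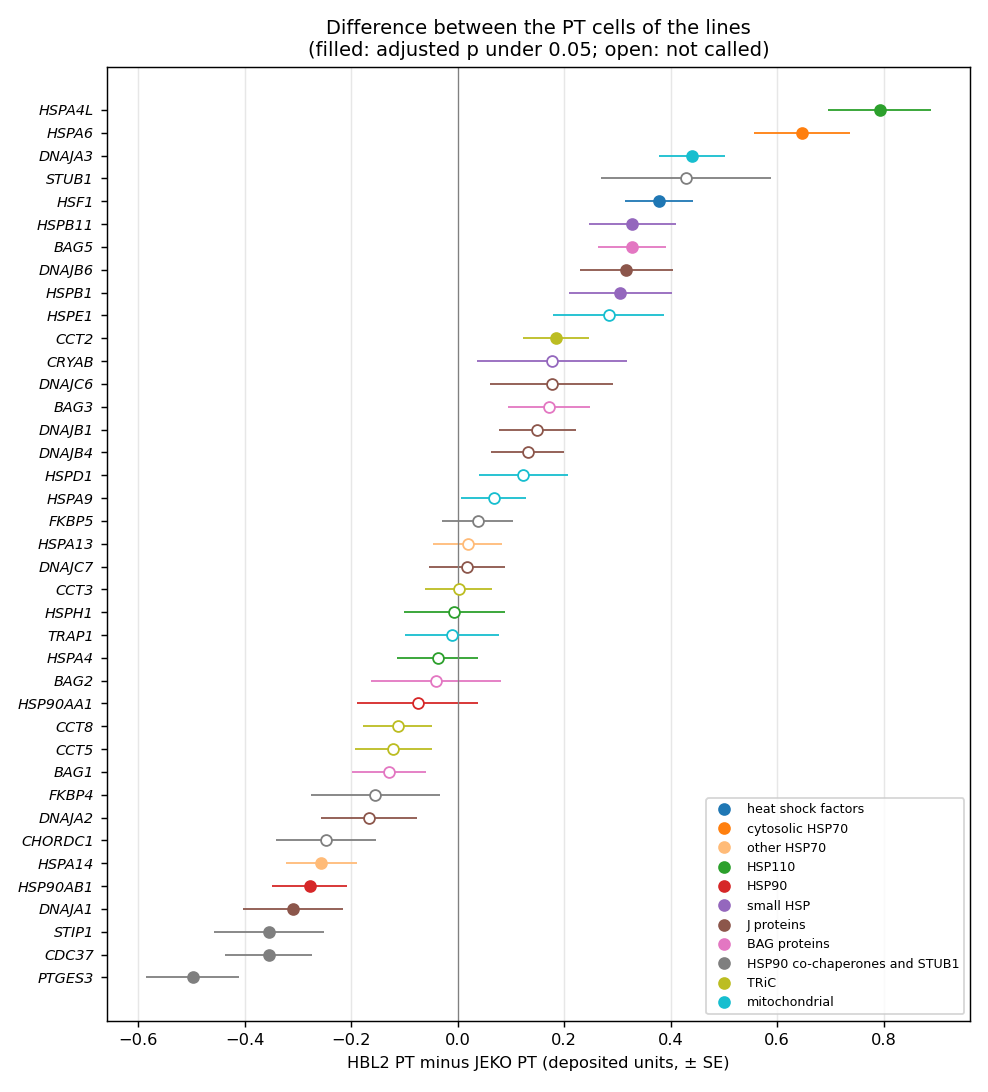
Difference between the PT cells of the lines for each of 39 members (HBL2 PT minus JEKO PT, deposited units, with standard errors), ordered by size and coloured by class; filled points are called. HSPA4L (0.79) and HSPA6 (0.65) are at the top and PTGES3 (-0.50) at the bottom, with CDC37 and STIP1 above it.

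In the resistant cells 20 of 39 members (51.3%) were called between the lines, beside 28.1% of all genes. In HBL2 13 were higher, beside 14% of all genes, and 7 lower, beside 14.1%. The BR arrays of the lines did not overlap for 28 members, beside 54.6% of all genes. PTGES3 scored 3.17, 3.23 and 3.01 in HBL2 BR and 3.64 and 3.35 in JEKO BR, and CDC37 scored 1.79, 1.72 and 1.74 against 2.08 and 1.91. BAG5 scored 2.60, 2.55 and 2.49 in HBL2 BR and 1.97 and 1.87 in JEKO BR, DNAJA3 2.23, 2.28 and 2.30 against 1.75 and 1.80, and HSPB11 2.46, 2.50 and 2.45 against 2.02 and 2.07. HSPA4L (0.91 ± 0.096, limma adjusted p = 3.38e-06), BAG5 (0.62 ± 0.064, adjusted p = 2.27e-06), DNAJC6 (0.55 ± 0.12, adjusted p = 0.0019) and DNAJA3 (0.49 ± 0.062, adjusted p = 1.85e-05) were higher in HBL2. Every JEKO array of HSPA4L lay below the filter level of 0.73, so HSPA4L was tested only through HBL2, where it is high. With the median over its probe sets DNAJC6 differed by 0.11 and was not called (adjusted p = 0.51). The signs of HSPA6, HSPB1 and DNAJB6 were opposite to those in PT cells: HSPA6 was -0.26 ± 0.090 in BR cells (adjusted p = 0.039), HSPB1 -0.28 ± 0.096 (0.039) and DNAJB6 -0.30 ± 0.087 (0.016). Without 1 array their adjusted p reached 0.155, 0.314 and 0.188. With the median over probe sets HSPA6 differed by -0.19 and was not called (adjusted p = 0.072). HSPB1, with a single probe set, kept its difference of -0.28 in that setting but was not called (0.0547). For HSPB1 only the shared spread and the adjustment changed. The HBL2 BR arrays of HSPA6 lay below the filter level of 0.73. The sign of HSPA14 was opposite as well, at 0.29 ± 0.067 (adjusted p = 0.0035). The same arrays gave the calls of these 4 genes on the difference of the changes, so the signs here are no separate evidence. The count was 13 without HBL2 BR replicate 2, 11 without JEKO BR replicate 1 and 12 without JEKO BR replicate 2.

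**Figure D5:**
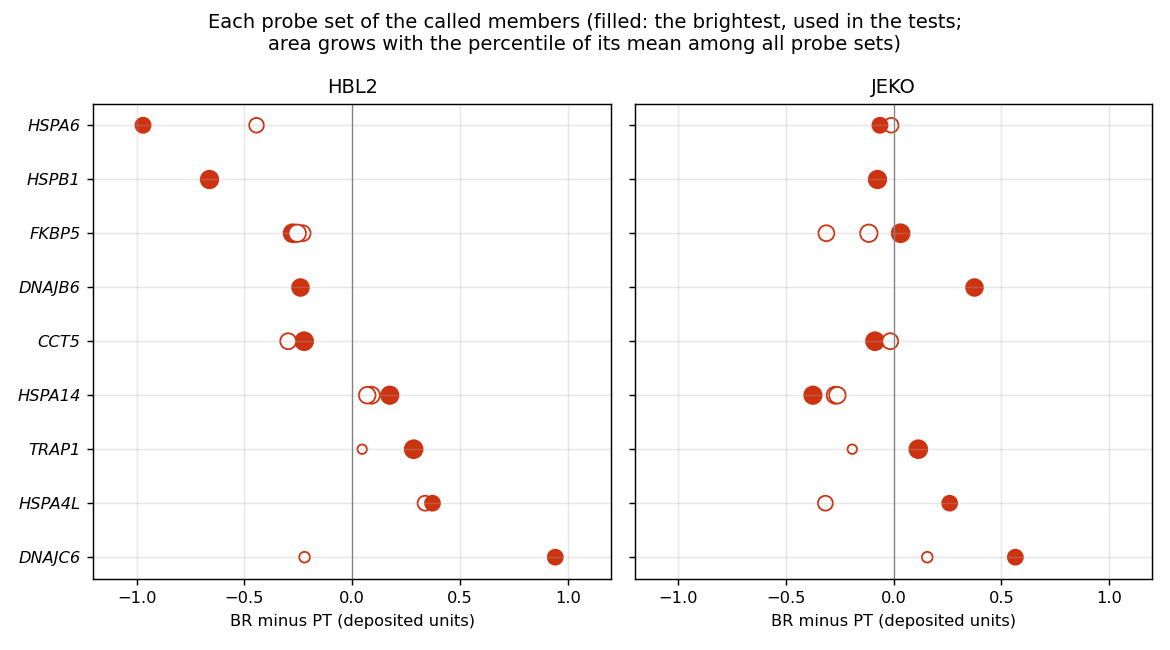
BR minus PT (horizontal axis, deposited units) for every probe set of the 9 members called in HBL2 or JEKO, with filled points for the brightest, used in the tests, and an area that grows with the percentile of its mean. The probe sets of FKBP5 and CCT5 lie together in HBL2 and those of HSPA14 in JEKO, while DNAJC6 and TRAP1 rest on 1 bright probe set.

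The classes were small, and no class had more than 2 called members in either line. Of the 7 HSP90 co-chaperones with STUB1, FKBP5 fell in HBL2, where 5 changes lay above 0 (median 0.077), and none was called in JEKO, where 6 lay below 0 (median -0.11). Of the 7 J proteins, DNAJC6 rose in HBL2, and DNAJC6 and DNAJB6 rose in JEKO. Of the 4 BAG proteins none was called in either line, with medians of 0.070 in HBL2 and -0.15 in JEKO. The 3 genes listed as small heat shock genes, HSPB11 included, had changes below 0 in both lines. Over all 14529 genes, 7310 changes lay below 0 in HBL2 and 6771 in JEKO. HSPB1 in HBL2 was the single call of this class, and no other change in it passed the test.

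The remaining members gave no call on resistance in either line. HSPA4, a constitutive HSP110, scored 2.06 to 2.31 in HBL2 and 2.17 to 2.29 in JEKO, with changes of 0.028 and -0.0086 (limma adjusted p = 0.86 and 0.98). HSPA13 changed by 0.15 and 0.022 (adjusted p = 0.13 and 0.92), and its HBL2 arrays did not overlap. DNAJA1, the main cytosolic partner of HSC70 with DNAJA2, changed by 0.19 and -0.049 (adjusted p = 0.18 and 0.87). DNAJB4 changed by -0.11 and -0.046, and DNAJC7, which binds HSP70 and HSP90 through its TPR repeats, by 0.091 and 0.14. BAG1, the founding nucleotide exchange factor of the family, changed by 0.12 and -0.072. The immunophilin FKBP4, a steroid receptor co-chaperone like FKBP5, changed by 0.17 in HBL2, against the fall of FKBP5, and by -0.11 in JEKO (adjusted p = 0.38 and 0.74). STUB1 changed by -0.067 and -0.096, PTGES3 by 0.022 and -0.12, and CDC37 by 0.077 and -0.037.

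Other genes of the chaperone network, 52 in a list that excludes the members, were counted in the same fit, and 46 were tested. In HBL2, 3 rose and 1 fell (8.70%, beside 11.8% of all genes), and in JEKO 1 rose and 1 fell (4.35%, beside 4.28%). In HBL2 BR the TRiC subunit CCT6A (0.29 ± 0.068, limma adjusted p = 0.0092), the HSP70 nucleotide exchange factor HSPBP1 (0.29 ± 0.086, adjusted p = 0.038) and the co-chaperone SGTA (0.21 ± 0.060, adjusted p = 0.033) rose, and TOMM34, a co-chaperone of mitochondrial import, fell (-0.20 ± 0.061, adjusted p = 0.047). In JEKO BR the myosin chaperone UNC45A rose (0.38 ± 0.10, adjusted p = 0.044, but 0.23 with adjusted p = 0.36 without JEKO PT replicate 2 and 0.24 with 0.25 for the median over probe sets) and the TRiC subunit CCT7 fell (-0.30 ± 0.070, adjusted p = 0.023). CCT6A and CCT5, subunits of 1 complex, thus went in opposite directions in HBL2. Each of these 6 calls was lost without at least 1 array, that of CCT6A without HBL2 BR replicate 1 or 2 (adjusted p = 0.0603 and 0.0562).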

How the data were processed

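Messenger RNA of 10 cell line samples was measured on Affymetrix arrays, 1 array each. The deposited table holds a score for each of 54675 probe sets. The submitters' processing notes name MAS5 with no version, and no source used here records later steps. Sorted scores were identical on all arrays (largest difference 0), so a score depends only on a probe set's rank and a general shift of most genes cannot be seen. Precision is limited by the number of arrays.

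Of the probe sets, 62 were controls, 41091 had 1 symbol in the platform annotation, 1801 several and 11721 none listed; those with several or none were left out. Gene IDs of 41037 were found in the RefSeq table (GRCh38.p14). A probe set was kept if 2 or more arrays held it at the 50th percentile or higher, and the brightest per gene was used. One fit covered all 4 groups (limma 3.58.1, R 4.3.3; eBayes with trend, 6 residual degrees of freedom, prior 9.89), two-sided, with Benjamini-Hochberg adjustment over 14529 genes for each of 5 comparisons. Errors after ± are standard errors. The fit was tested on simulated data. The members, the list of other genes and the rule for named genes were chosen with earlier results of these data known: values by array were given for members called in either line or in the difference of the changes, the 10 largest called differences between PT cells and 10 fixed members, of which HSPA1A, HSPA1B and HSPA8 had no value. Alternatives were no filter, a 75th percentile filter, other variance models, array weights, each line alone, a replicate block, other probe set rules, ranks, normal scores, a beta-actin covariate and leaving out each array.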

Additional observations from a re-analysis of the deposited data

Results flagged for a closer look

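The changes of 6 members differed between HBL2 and JEKO by the test of the difference itself (HBL2 change minus JEKO change, limma adjusted p under 0.05). HSPA6 differed by -0.91, with changes of -0.97 in HBL2 and -0.063 in JEKO. HSPB1 differed by -0.59, with changes of -0.66 and -0.078. DNAJB6 differed by -0.62, with changes of opposite sign in the lines, -0.24 and 0.37. HSPA14 differed by 0.55 (0.17 in HBL2 and -0.37 in JEKO), STIP1 by 0.52 (0.18 and -0.34) and CHORDC1 by 0.48 (0.12 and -0.36). No sample was tested for standing apart within its group, since groups held 2 or 3 arrays.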

How the results depend on the processing

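No called member changed direction in any alternative. Of the called members, 4 of 7 in HBL2 (HSPA6, HSPB1, FKBP5 and DNAJC6), 0 of 3 in JEKO, 3 of 6 for the difference of the changes (HSPA6, HSPA14 and DNAJB6), 5 of 15 between PT cells (HSF1, HSPA6, HSPA4L, BAG5 and DNAJA3) and 4 of 20 between BR cells (HSPA14, HSPA4L, BAG5 and DNAJA3) kept their call in every alternative that gave them a value. HSPB1, DNAJB6, DNAJC6, BAG5 and DNAJA3 have no value without _x_at and _s_at probe sets, a setting that left 24 of the 39 members. HSPA4L passed the level filter only through HBL2, where it is high.

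The count of 7 members in HBL2 became 12 with array weights, and 4 to 8 leaving out single arrays. The count of 3 in JEKO became 1 without the variance trend, 7 with array weights, 6 with each line fitted alone, 1 without _x_at and _s_at probe sets, 5 with the beta-actin covariate, and 0 to 5 leaving out single arrays. The count of 6 for the difference of the changes became 3 without those probe sets, 10 with the covariate and 4 to 9 leaving out single arrays. Between PT cells the count of 15 became 7 without those probe sets, 9 with percentile ranks and 10 to 16 leaving out single arrays. Between BR cells the count of 20 became 13 without the trend, 9 without those probe sets, 11 with percentile ranks and 11 to 23 leaving out single arrays. Over all genes, the 1711 calls in HBL2 became 2684 with array weights and 1118 without HBL2 BR replicate 2, the 622 in JEKO became 1032 with array weights, 389 both without the trend and with the median over probe sets, 942 without HBL2 PT replicate 3 and 208, 246, 281 and 120 without JEKO PT replicate 1, PT replicate 2, BR replicate 1 and BR replicate 2, and the 1266 on the difference of the changes became 1948 with array weights, 821 with the median over probe sets and 696, 832 and 658 without JEKO PT replicate 1, PT replicate 2 and BR replicate 2. Between PT cells the 3361 calls over all genes became 2015 and 1974 without JEKO PT replicate 1 or 2, and between BR cells the 4083 became 2444 without JEKO BR replicate 2. The cause was not tested, except that fewer members or arrays were tested where some were left out.

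With the replicate block the counts were 7, 3, 6, 14 and 17 in the same order. Whether the numbers pair the samples cannot be told from these arrays, since deviations were taken from means of 2 or 3 arrays. Deviations of same-numbered HBL2 arrays correlated at 0.017, 0.14 and 0.0075 over genes. Differently numbered ones correlated at -0.20 to 0.155, the highest for PT replicate 1 with BR replicate 3. In JEKO the values were 0.078 for same numbers and -0.078 for different ones.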

Other observations

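HSPA2, the testis-enriched HSP70 and the member below the level filter, scored 0.44 to 0.66 in HBL2 PT, 0.54 to 0.71 in HBL2 BR, 0.46 and 0.57 in JEKO PT and 0.40 and 0.53 in JEKO BR, and the ranges of all 4 groups overlapped.

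Some members had probe sets that disagreed in JEKO. HSPA4L changed by 0.26 on the probe set used and by -0.32 on the other. FKBP5 changed by 0.032 on its brightest probe set and by -0.12 and -0.31 on the others. HSF1 changed by 0.080 on its brightest and by -0.25 on a probe set that averaged at the 46.7th percentile. These single differences were not tested.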
